A study of Salmo salar with 54 samples.

Results

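Arsenite (AsIII), the trivalent inorganic form of arsenic, was given at 1 µM for 48 h to primary hepatocytes of Atlantic salmon (Salmo salar), and RNA from these cells was compared with RNA from cells of the same fish kept without arsenite. The comparison rests on 12 of the 54 libraries of the series, 6 exposed and 6 control, chosen by their labels, and all genes of the deposited table were examined. The cells came from livers of 6 male fish, digested with collagenase and grown in serum-containing medium on laminin-coated polystyrene scaffolds. Each fish gave 1 library per group, so n = 6 fish throughout and every change below is a difference within fish. The AsIII plates also held cells at 0.1 and 3 µM (6 libraries each). These entered the same fit, and their values are set beside those at 1 µM. Cells on separate plates were exposed to an arsenosugar and are not analysed here. All groups carried the limits of a short culture of male liver cells in fetal bovine serum, and arsenic uptake and cell survival were not analysed here.

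Trivalent arsenic binds neighbouring protein thiols and lowers the pool of reduced glutathione. In vertebrate cells the modified thiols of KEAP1 release the transcription factor NRF2, which turns on genes of glutathione synthesis, thioredoxin and NADPH supply. Damaged cytosolic proteins release HSF1, which turns on heat shock chaperones, and the kinases that phosphorylate eIF2 favour translation of ATF4. The liver is also where arsenic is methylated by AS3MT, conjugated to glutathione and exported by ABC transporters. These statements are background from other vertebrates and are not results of these libraries.

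Levels are given as normalised reads, that is, gene read counts divided by the authors' size factor of the library. They were not divided by gene length and are compared only within a gene. Changes are differences of log2(level + 1), 1 µM minus control, with the standard error of a limma fit over the 24 AsIII libraries. A gene was called when its p, adjusted over all genes, was below 0.05. Depth was 10.6 to 21.8 M reads in the controls and 9.86 to 17.7 M at 1 µM, and no library of these 12 lacked reads for more than 8 of the listed genes. One library outside the comparison stood apart, that of fish 1 at 0.1 µM. Its levels deviated from the median of its group with an SD of 0.807 on the log2 scale, against 0.208 to 0.421 in the other 23 AsIII libraries. It shared the estimate of the spread, and more genes were called at 1 µM without it, so counts of gene lists that differ by more than 1.5 times are given with and without it. The 18 hepatocyte markers asked for matched 11 measured genes, with hpxa and hpxb both matched to hpx. The most reads were in transferrin (tfa), hemopexin (hpxa) and fetub. The sum of the 11 genes took 8.01% to 9.53% of the reads in the controls and 6.40% to 8.45% at 1 µM. In such bulk RNA, fewer cells of a type and less RNA per cell cannot be told apart.

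At 1 µM, 10779 of 18899 genes tested were called, 57.0% of the table, 5629 higher (29.8%) and 5150 lower (27.3%). Every count of list members below is to be read beside these shares. Without the library that stood apart the counts were 6346 higher and 6127 lower of 18897 genes. List counts without that library are to be read beside those. Most called changes were below 2-fold. Among called genes the median rise was 1.61-fold and the median fall 1.52-fold, and 4604 called genes (42.7%) moved by less than 1.5-fold. Large changes were more often rises than falls: 1459 genes (7.72%) rose and 973 (5.15%) fell at least 2-fold, 224 and 92 at least 4-fold, and 64 and 8 at least 8-fold. In 3942 genes every exposed library lay above every control (20.9% of the table) and in 3033 every exposed library lay below (16%). Called or not, 57.9% of genes moved the same way in 6 of 6 fish. Each fish moved in the called direction for 96.9% to 98.7% of the called genes, a range that describes the genes selected and is no separate test. Calls were more frequent among genes with more reads, 47.0%, 56.5%, 61.2% and 63.4% in 4 equal classes of rising level.

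**Figure D1:**
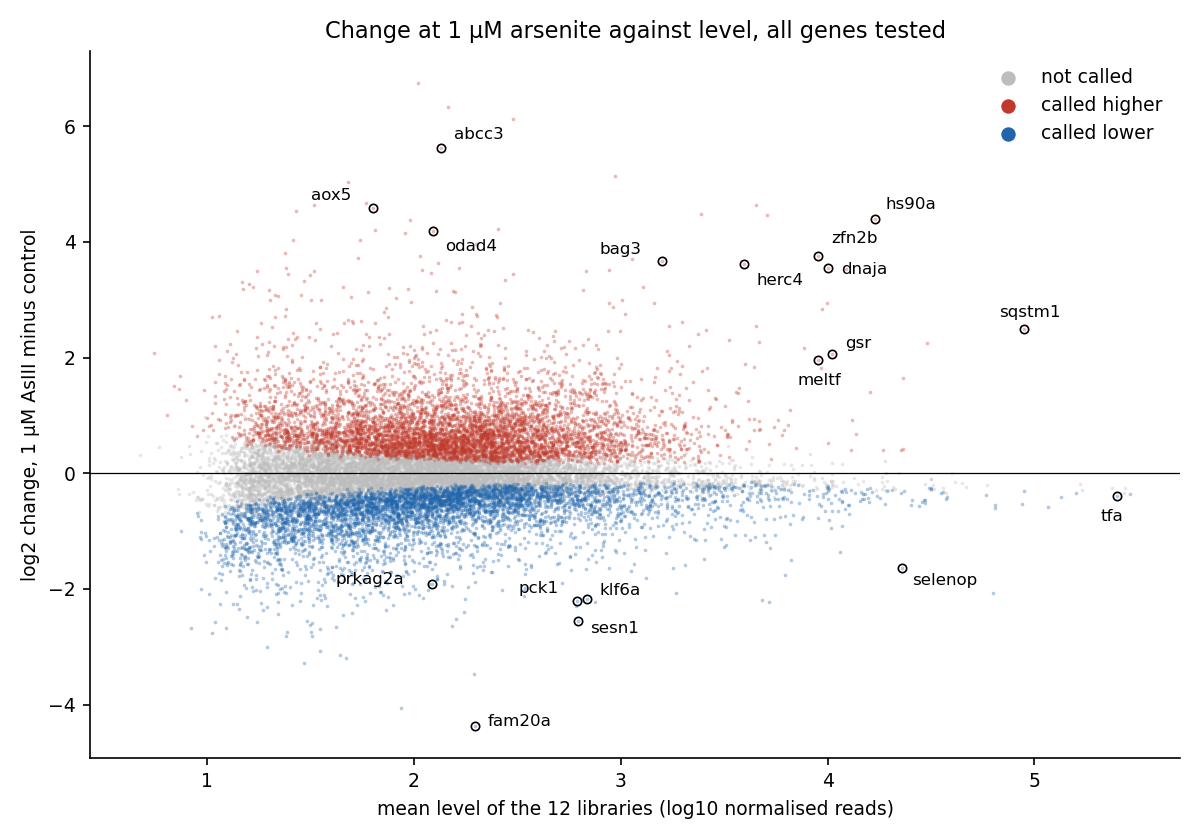
Each point is 1 of the 18899 genes tested, with the mean level of the 12 libraries (log10 normalised reads) on the horizontal axis and the log2 change, 1 µM AsIII minus control, on the vertical axis. Red and blue mark genes called higher and lower, grey genes not called, and circles the genes labelled by symbol. Rises of more than 4 log2 units reached further than falls, and sqstm1 and hs90a combined a large rise with many reads.

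The regulators of NRF2 were higher without exception among the 5 measured. sqstm1 (GeneID 100194694), the autophagy receptor p62 that also binds KEAP1, had 20498, 24239 and 36854 normalised reads in the controls (lowest, median and highest of 6) and 129017, 150152 and 168155 at 1 µM. The groups did not overlap, and the rise was 2.49 ± 0.13 on the log2 scale, or 5.6-fold (adjusted p = 1.07e-12). Its transcripts went from 0.248% ± 0.0699 (SD) to 1.43% ± 0.176 of all reads, the largest gain of reads among genes with a symbol. A further gene listed as sqstm gained from 0.0954% ± 0.0120 to 0.478% ± 0.0577. keap1a, the NRF2 repressor, rose by 2.26 ± 0.11 from a median of 1529.7 to 7646 normalised reads, and bach1b, a repressor that competes at the same DNA elements, by 2.31 ± 0.15. The small MAF partner maff rose by 1.48 ± 0.10 and nfe2l2a, which encodes NRF2, by 0.66 ± 0.11. The median of the 5 was 2.26 against -0.01 over all genes.

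Genes of glutathione synthesis and reduction rose while the peroxidase genes gpx1a and gpx4a fell. gclc (GeneID 100196780), the catalytic subunit of the first enzyme of glutathione synthesis, had 723, 867 and 968 normalised reads in the controls and 2611, 3107 and 3634 at 1 µM. The groups did not overlap, and the changes of single fish lay between 1.72 and 1.97 on the log2 scale. gss, the second enzyme, rose by 0.83 ± 0.10, and glutathione reductase gsr rose by 2.06 ± 0.12, from 3468, 3861 and 5124 to 15917, 16644 and 18569 normalised reads. The cytosolic glutathione peroxidase gpx1a fell by 1.71 ± 0.17, from 63.6, 74.2 and 93.9 to 15.2, 23.1 and 33.2, and the phospholipid hydroperoxidase gpx4a had 250.3, 324 and 423 normalised reads in the controls and 140, 168 and 279.5 at 1 µM. gpx4a fell in 6 of 6 fish (-0.89 ± 0.09) although its groups overlapped in level. The secreted gpx3 rose by 0.49 ± 0.11. Of the 15 glutathione genes measured, 8 rose and 4 fell, beside 29.8% higher and 27.3% lower over all genes. Among them chac1, which degrades glutathione, rose by 1.76 ± 0.13.

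Genes of thioredoxin and peroxide defence moved in both directions, and no NADPH gene fell. txnb, a thioredoxin, held 65.9, 83.4 and 131 normalised reads in the controls and 339, 401 and 523 at 1 µM and rose by 2.22 ± 0.15. The thioredoxin-binding txnip fell (-1.10 ± 0.15), as did the peroxiredoxin prdx1 (-0.64 ± 0.12), which had only 62.4 to 103 normalised reads at 1 µM. Outside this list tdx, by its symbol a thioredoxin peroxidase, gained from 0.0791% ± 0.00462 to 0.220% ± 0.0189 of all reads. Of the superoxide dismutases, the cytosolic sod1 rose by 1.48 ± 0.22, and the mitochondrial sod2 (-0.45 ± 0.10) and extracellular sod3 (-0.56 ± 0.11) fell. Catalase (cat) fell as well (-0.39 ± 0.10). In the NADPH list pgd, an NADPH-making enzyme of the pentose phosphate pathway, rose by 0.94 ± 0.12. In that list 5 members were not called, with changes between -0.16 and 0.01.

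**Figure D2:**
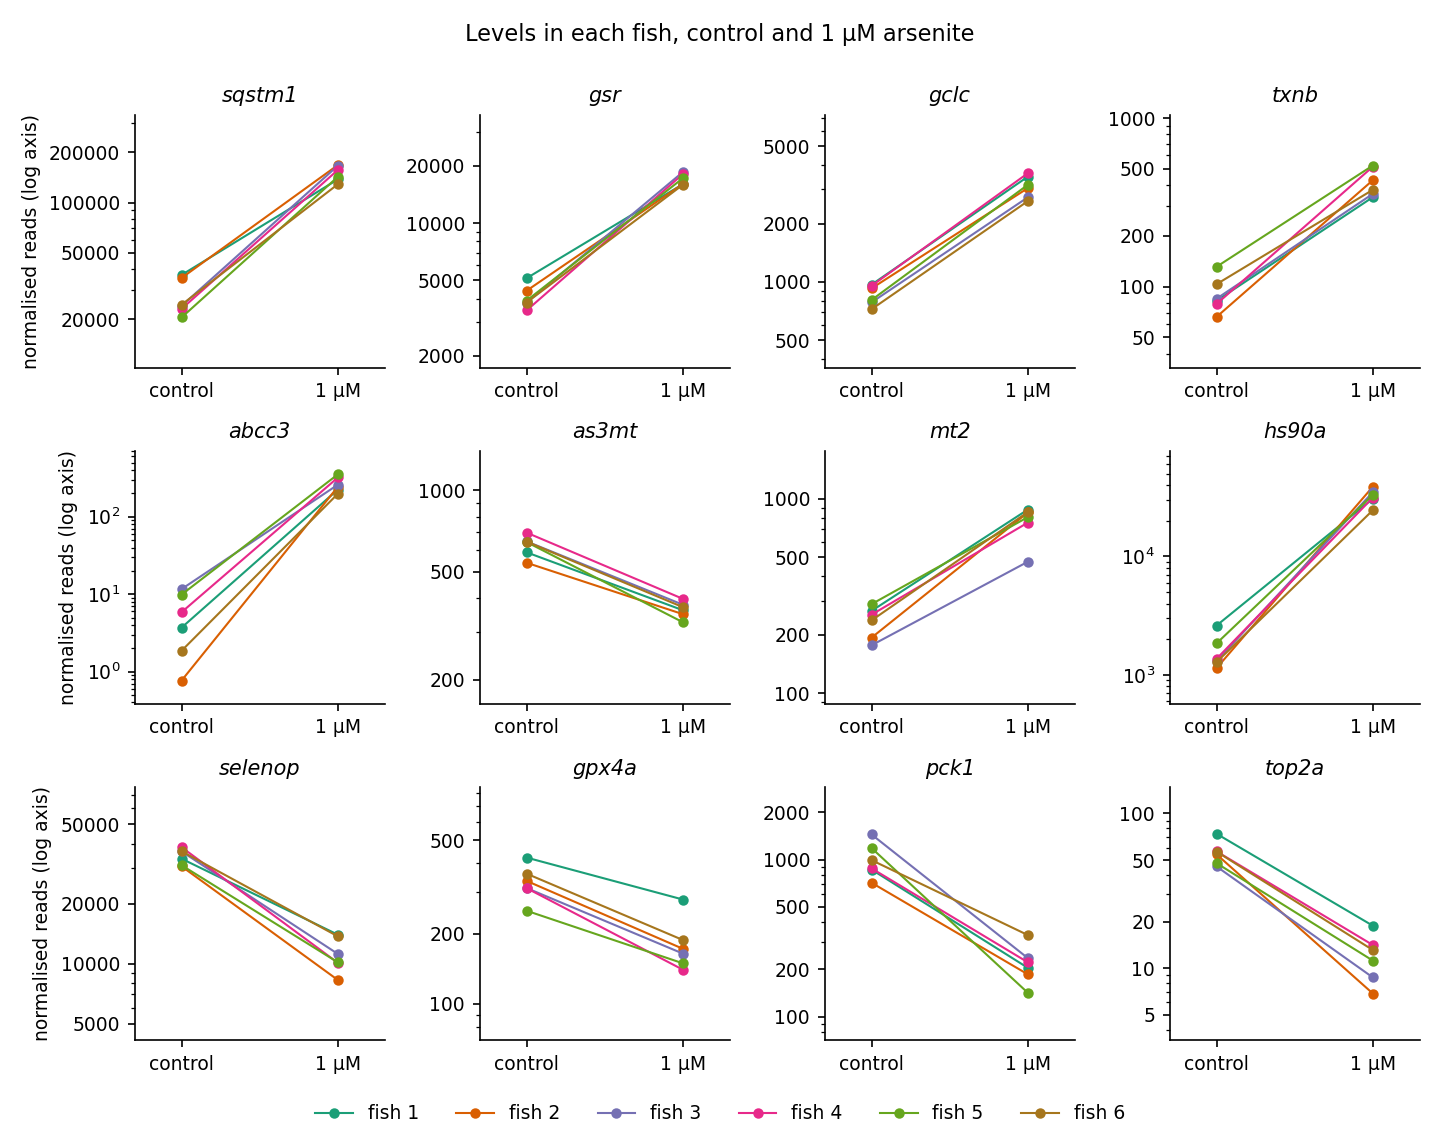
Normalised reads (log axis) of 12 genes in the control and at 1 µM AsIII, with 1 line per fish and points for single libraries. The lines of sqstm1, gsr, gclc, txnb, abcc3, mt2 and hs90a rise and those of as3mt, selenop, gpx4a, pck1 and top2a fall in 6 of 6 fish. Only gpx4a shows overlap between the groups.

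The 5 genes of arsenic handling that were measured were all called, beside 57.0% of all genes. abcc3 (GeneID 106589510), an exporter of organic anions and conjugates, was near the limit of detection in controls, with 0.767, 4.77 and 11.6 normalised reads, and had 198, 252 and 353 at 1 µM. The change of 5.63 ± 0.31 rests on 41 and 1894 reads summed over the 6 control libraries and the 6 exposed ones. abcc2, a second conjugate exporter, rose far less (0.42 ± 0.15), from 2909, 3554 and 3940.2 to 4042, 4639.6 and 5119, without overlap. Its call was lost without each of fish 3, 4 and 5, fits that kept the library that stood apart. In that library abcc2 had 1536.5 normalised reads, against 3925 to 4662 in the others at 0.1 µM. The part of that library in the lost calls was not tested. as3mt (GeneID 106588782), the arsenic methyltransferase, had 541, 646 and 698 in the controls and 326, 366 and 398 at 1 µM, without overlap, 1.72-fold lower (-0.78 ± 0.11). gsto1, a glutathione transferase that reduces methylated arsenic in mammals, rose by 0.98 ± 0.14. A locus listed under the synonym ahcy, the hydrolase that removes the by-product of methylation, fell by 0.25 ± 0.09, and its call was lost without fish 2 or fish 4.

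Metal genes moved in both directions. The metallothionein mt2 (GeneID 100136581) had 177, 245 and 287 normalised reads in the controls and 475, 828 and 880.2 at 1 µM and rose by 1.70 ± 0.30 (adjusted p = 5.69e-05). mtf1, the metal-sensing factor that controls metallothioneins, rose by 0.80 ± 0.12. slc30a1a, the zinc exporter of the cell membrane and a further known MTF1 target in mammals, fell by 1.66 ± 0.11, from 823, 1020.4 and 1148 to 238, 296 and 544. Of 7 iron and copper genes, 4 fell and 0 rose (1 rose without the library that stood apart and with library totals). Over all genes 27.3% were lower and 29.8% higher. The list does not hold every iron gene. Outside it, LOC100136565 (synonym FRIM, a ferritin name) gained from 0.101% ± 0.0119 to 0.332% ± 0.0353 of all reads. The melanotransferrin gene meltf, also outside it, gained from 0.0337% ± 0.00809 to 0.137% ± 0.0241. Those that fell were the copper importer slc31a1 (-1.15 ± 0.13), both transferrin receptors (tfr1a -0.90 ± 0.08 and tfr2 -0.55 ± 0.17) and ceruloplasmin, cp (-0.32 ± 0.11).

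Chaperone genes rose more often than they fell. hs90a (GeneID 100380418), an HSP90 gene, had 1141, 1337 and 2609 normalised reads in the controls and 24548, 32230 and 38760.5 at 1 µM, a 20.9-fold rise. hsp90ab1, the constitutive cytosolic form, rose by 0.41 ± 0.10, and hsp90b1, the form of the endoplasmic reticulum (ER), was not called (-0.07 ± 0.23, adjusted p = 0.818). The HSP90 co-chaperones ahsa1a (1.66 ± 0.09), chordc1b (1.82 ± 0.08) and fkbp4 (1.82 ± 0.21) rose. Among HSP40 and BAG genes, which serve HSP70, dnaja went from 1145, 1471 and 2446 to 12632, 18706 and 24048 and bag3 from 174, 216 and 296 to 1729.7, 2746 and 4817. bag2 (3.28 ± 0.36) and dnajb1a (1.92 ± 0.13) rose too. The constitutive HSP70 gene hspa8 was not called (0.01 ± 0.08, adjusted p = 0.952). The small heat shock gene hsp30 rose in 6 of 6 fish, but by between 1.32 and 6.59 log2 units, from control levels of 2.3, 25.4 and 124. In all, 14 of 23 chaperone genes rose and 2 fell, beside 29.8% higher and 27.3% lower over all genes. Those that fell were hsf2 (-0.70 ± 0.19) and fkbp5 (-0.59 ± 0.25), and the call of fkbp5 was lost in 11 of 17 other settings.

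Most genes of protein breakdown rose. Of 10 proteasome subunits measured, 9 rose and 0 fell, beside 29.8% higher and 27.3% lower over all genes. Their median was 0.69, against -0.01 over all genes. Among the genes called higher alone the median was 0.68. psmc5, an ATPase of the cap, went from 676, 738 and 778 to 1238, 1468 and 1635 normalised reads and psmc6 from 420.1, 486 and 543 to 822, 929 and 1076, in each case without overlap. The subunit not called was psma4 (0.01 ± 0.10, adjusted p = 0.939). Ubiquitin itself (ubb, 0.80 ± 0.10), the VCP cofactor nploc4 (1.05 ± 0.07) and zfand5b (1.13 ± 0.09), a proteasome-binding zinc finger gene, rose. nfe2l1b, whose mammalian counterpart drives proteasome genes, fell by 0.25 ± 0.09, a call lost without each of fish 2, 4 and 5. Of 11 listed autophagy genes 8 rose and 0 fell, beside 29.8% higher and 27.3% lower over all genes. Those that rose included the receptor optn (1.12 ± 0.18) and the membrane-bound map1lc3a (0.78 ± 0.17) and map1lc3b (0.68 ± 0.14). The list does not hold every autophagy gene, and tp53inp2b, outside it, was called lower.

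Among genes of ATF4 and ER stress more rose than fell. Of 12 transcription factors and sensors of ATF4 and the other ER stress branches, 7 rose and 1 fell, beside 29.8% higher and 27.3% lower over all genes. ddit3, which encodes CHOP, had 261, 352 and 399 normalised reads in the controls and 718, 936 and 1195 at 1 µM. atf5a (1.65 ± 0.12), atf3 (1.07 ± 0.13) and atf4 itself (1.03 ± 0.10) rose. ern1, the IRE1 sensor of unfolded ER proteins, fell from 273, 328 and 363 to 163, 179.9 and 188, and xbp1, the factor it activates, was not called (0.19 ± 0.09, adjusted p = 0.0961). Of 7 genes of amino acid supply and related ATF4 targets, 6 rose and 0 fell. Those that rose included the mitochondrial folate enzyme mthfd2 (medians 309.5 to 999), the leucine carrier slc7a5 (medians 13.4 to 35.8) and sesn2 (1.63 ± 0.23). ER chaperones and degradation factors gave 3 rises and 3 falls among 12, near the 29.8% and 27.3% of all genes. dnajc3b rose by 0.78 ± 0.08, and sel1l (-0.99 ± 0.10) and edem1 (-0.57 ± 0.09), both of ER-associated degradation, fell.

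Growth arrest and apoptosis genes did not share a direction. The cell cycle inhibitor cdkn1a was not called (0.01 ± 0.23, adjusted p = 0.985). sesn1 (GeneID 106607965), a stress gene that restrains mTORC1, fell from 732, 959.7 and 1691 to 128, 157 and 288, opposite to its relative sesn2. The polo-like kinases were also split, plk3 rising by 2.35 ± 0.27 while plk2b changed by -1.84 ± 0.22. The growth arrest genes ccng2 (1.83 ± 0.19) and gadd45ga (1.39 ± 0.11) rose. Among apoptosis genes the BH3-only activators bbc3 (1.05 ± 0.23) and bcl2l11 (0.77 ± 0.18) rose along with the protective bcl2l1 (0.65 ± 0.10), while baxb (-0.92 ± 0.16) fell.

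Most mitotic genes fell. Of 14 measured, 12 fell and 1 rose (2 rose without the library that stood apart), beside 27.3% lower and 29.8% higher over all genes. Their median was -1.37. top2a, the topoisomerase of dividing cells, had 45.5, 55.6 and 74 normalised reads in the controls and 6.85, 12.1 and 18.8 at 1 µM, and aspm, a spindle pole gene, 37, 76.9 and 98 and 6.22, 11.5 and 15.5. These levels are low, so the folds rest on few reads. The cytokinesis gene prc1b (-2.05 ± 0.32), the mitotic cyclin ccnb1 (-1.76 ± 0.32) and the kinetochore genes cenpe (-1.67 ± 0.24) and cenpf (-1.52 ± 0.28) fell. The G1 cyclin ccnd2 rose by 0.48 ± 0.13 in 5 of 6 fish. Replication genes gave 2 of 14 higher, 3 lower and 9 not called, beside 29.8% higher and 27.3% lower over all genes. Without the library that stood apart, 6 replication genes were lower.

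Hepatocyte genes were more often lower than higher. Of 21 plasma protein genes, 13 fell and 0 rose, beside 27.3% lower and 29.8% higher over all genes. Their median was -0.37, and 20 fell without the library that stood apart. Transferrin, tfa, the most read of the called genes with a symbol, had 260714, 270851 and 331777 normalised reads in the controls and 169326, 218112 and 251518 at 1 µM, and its call was lost without fish 2. The apolipoprotein genes apoeb (medians 9051 to 3136 normalised reads) and apoba (-1.07 ± 0.11) and the retinol carrier rbp4 (-1.07 ± 0.11) fell by more. selenop (GeneID 106585199), the plasma selenium carrier, had 30755, 35053 and 38341 in the controls and 8271, 10659 and 13958 at 1 µM. That is 3.11-fold lower, and selenop went from 0.310% ± 0.0164 to 0.106% ± 0.0180 of all reads. Among liver transcription factors, foxa1 (-1.15 ± 0.16), cebpa (-0.89 ± 0.09) and the bile acid receptor nr1h4 (-0.89 ± 0.24) fell. The oestrogen receptor esr1 went from 5426, 6904 and 8753 to 2316, 2930.1 and 4697. The nuclear receptor genes that rose were nr0b2, which represses other receptors (1.03 ± 0.15), pparg (0.60 ± 0.14) and nr1h3 (0.56 ± 0.10).

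Few markers of other liver cells matched a measured gene by name, which does not show that the others were absent from the cultures. The 10 endothelial markers asked for gave 3 genes, 11 stellate and fibroblast 4, 8 macrophage and granulocyte 3, and 8 cholangiocyte 2. The 7 lymphocyte markers gave 2 genes and the 6 erythrocyte markers 1. Each sum took at most 0.0305% of the reads in the controls. Summed levels were 174 to 252 normalised reads in the controls and 260 to 346 at 1 µM for 3 endothelial markers, and 319 to 678 and 1005 to 1499 for 4 stellate and fibroblast markers. Those of 3 macrophage markers were 2532 to 3251 and 1787 to 2386, and those of 2 cholangiocyte markers 2847 to 3527 and 2280.4 to 2731. Single markers were measured for erythrocytes (rhag, 210 to 395 and 204 to 344), and 2 loci carry the synonym CD4 (1212 to 1712 and 723 to 1257). None was at 0 in all of the 12 libraries. Among the stellate and fibroblast markers timp2, which carried most of the sum, rose by 1.75 ± 0.12 and the fibronectin gene fn1a by 0.66 ± 0.21, and the endothelial marker esamb rose by 0.64 ± 0.09. The timp2 copy timp2a (-0.30 ± 0.17) and the myofibroblast actin acta2 (-0.12 ± 0.17) were not called. The endothelial markers kdr (-0.72 ± 0.33) and stab1 (0.12 ± 0.20) were not called either. The macrophage sum followed cd68 (-0.45 ± 0.12), a lysosomal gene that other cells also express, and the other macrophage markers were not called. The cholangiocyte marker anxa4 (-0.33 ± 0.10), rhag (-0.42 ± 0.15) and the CD4 locus LOC100136502 (-0.89 ± 0.08) fell. The part of other cell types in the gene changes was not tested.

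Of 12 genes of glucose, amino acid and urea metabolism 8 fell and 2 rose, beside 27.3% lower and 29.8% higher over all genes. pck1 (GeneID 100195420), the cytosolic enzyme that starts gluconeogenesis, went from 712, 936 and 1447 to 142, 213 and 330.4 normalised reads, and its mitochondrial counterpart pck2 from 6057, 7084 and 9442 to 2129, 3015 and 4166. The tyrosine aminotransferase tat fell by 0.92 ± 0.07 and the urea cycle enzyme cps1 by 0.70 ± 0.21, while got1, an aspartate aminotransferase, rose by 0.94 ± 0.10. For fatty acids, 10 of 19 oxidation genes fell and 2 rose, beside the same shares of all genes. cpt1b, a carnitine palmitoyltransferase of the mitochondrial membrane, fell (-1.69 ± 0.13), and cpt1ab, another gene of that family with few reads, rose (0.73 ± 0.16). The first enzyme of glycerolipid synthesis, gpam, fell (-1.16 ± 0.09), as did the desaturase scdb (-0.60 ± 0.11). In sterol synthesis 3 genes rose and 5 fell among 13, beside 29.8% and 27.3% of all genes. insig1, which helps to hold the SREBP transcription factors in the ER, fell by 1.25 ± 0.16, and srebf2 rose by 0.42 ± 0.11.

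Nuclear genes of oxidative phosphorylation fell in 22 of 44 cases and rose in 0, beside 27.3% lower and 29.8% higher over all genes. Their median was -0.35. Without the library that stood apart, 33 fell and 1 rose. ATP synthase genes were lower in 10 of 14 cases and complex I genes in 8 of 16, or 12 and 14 without that library. The complex I gene ndufa9a (-0.76 ± 0.11) fell, and the ATP synthase gene atp5a1 fell by 0.72 ± 0.12. Cytosolic ribosomal protein genes shifted by less, with a median of -0.18. Of these 43 genes 7 fell, a smaller share than the 27.3% of the whole table, but 27 fell without the library that stood apart, so their count depends on it. rpl7, for example, went from 5644, 6392 and 6738 to 4465, 5167 and 5232. With levels divided by library totals in place of size factors the median of all genes moved to 0.06, that of the ribosomal genes to -0.11 and that of the oxidative phosphorylation genes to -0.28. Of 17 genes of ribosome biogenesis and initiation 9 fell and 2 rose, beside 27.3% lower and 29.8% higher over all genes. Those that fell included dkc1 (-0.70 ± 0.12), the translational repressor eif4ebp3 (-0.95 ± 0.14) and mycb (-0.92 ± 0.12), a MYC gene. eif2s1a, the eIF2 subunit that stress kinases phosphorylate, rose by 0.76 ± 0.12.

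Methyl group metabolism was uneven. bhmt, which remethylates homocysteine with betaine, went from 5821, 10108 and 12546 to 1458, 2753 and 4367 normalised reads. The folate enzyme mthfd1b fell (-0.63 ± 0.21, a call lost without fish 5), opposite to mthfd2 above, and gnmt, which consumes the methyl donor, rose (0.40 ± 0.12). Of 11 genes of methyl group metabolism 4 fell and 2 rose, beside 27.3% lower and 29.8% higher over all genes. Without the library that stood apart 6 fell and 3 rose, beside 6127 lower and 6346 higher of 18897 genes. Of 8 genes of DNA and histone methylation 5 rose and 2 fell, beside 29.8% higher and 27.3% lower over all genes. The rises were led by the demethylases kdm2aa (1.07 ± 0.15) and tet1 (1.03 ± 0.18). Those that fell were ezh2 (-0.45 ± 0.10) and setd7 (-0.42 ± 0.08), both methyltransferases.

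Of 7 genes of cytochrome P450 and the aryl hydrocarbon receptor (AhR), 4 fell and 2 rose, beside 27.3% lower and 29.8% higher over all genes. Both loci listed under the synonym cyp1a, the classical AhR-induced enzyme, were lower. LOC100136916 went from 1778, 2945 and 3483 to 691, 736 and 1318, and LOC100136926 from 617, 1342 and 1558 to 158, 245 and 457. The receptor genes ahr1a (-1.13 ± 0.15) and ahr2b (-1.16 ± 0.16) fell, and ahr2a was not called (0.17 ± 0.16, adjusted p = 0.38). tiparp, which limits AhR in mammals, rose by 1.36 ± 0.19. The cyp1a copies may share reads, whose handling the sources used here do not give. Aldehyde oxidase aox5 rose by 4.58 ± 0.38, from 1.53, 3.97 and 6.38 to 44.7, 121 and 213, and a second aldehyde oxidase, aox6, by 0.60 ± 0.12. The epoxide hydrolase ephx1 rose (1.23 ± 0.18). Of 7 genes of conjugation and oxidation 4 rose and 2 fell, beside 29.8% higher and 27.3% lower over all genes. cbr1 fell (-0.44), a call lost without fish 5, without the pairing by fish and with library totals. aldh3a2b had 1820 to 2243 normalised reads in the controls and 1465 to 1814 at 1 µM.

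Inflammatory genes split by class. Of 8 acute phase and complement genes 6 fell and 0 rose, beside 27.3% lower and 29.8% higher over all genes. The lowest was c7b (-1.49 ± 0.15). The NF-kB feedback genes tnfaip3 and nfkbiab rose. tnfaip3 held 132, 180.2 and 197 in the controls and 624, 664 and 895 at 1 µM, and nfkbiab changed by 1.33 ± 0.13. The chemokine gene il8 rose by 2.33 ± 0.30 at low levels, 1.65, 7.48 and 15.4 and 23.7, 31.4 and 76.9. stat1a (-0.35 ± 0.08) and cmpk2 (-0.89 ± 0.17), both of the interferon response, fell. Among early-response genes csrnp1b rose by 2.62 ± 0.17 and klf6a fell by 2.17 ± 0.10, from 909, 1113 and 1385 to 157, 259 and 335, while jun (0.02 ± 0.17, adjusted p = 0.911) was not called. The growth factor gene igf2b fell from 133, 146 and 152 to 29.8, 44.3 and 56.3 and the growth hormone receptor ghra by 0.70 ± 0.10, and the insulin receptor insrb rose (1.28 ± 0.13). Of 11 matrix genes 3 rose and 3 fell, near the 29.8% and 27.3% of all genes. Those that fell included the protease mmp2 (-1.83 ± 0.12) and the membrane-bound mmp14b (-1.18 ± 0.11) that activates it in mammals. The 5 cytoskeletal genes measured were not called, and 1 was higher without the library that stood apart.

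**Figure D3:**
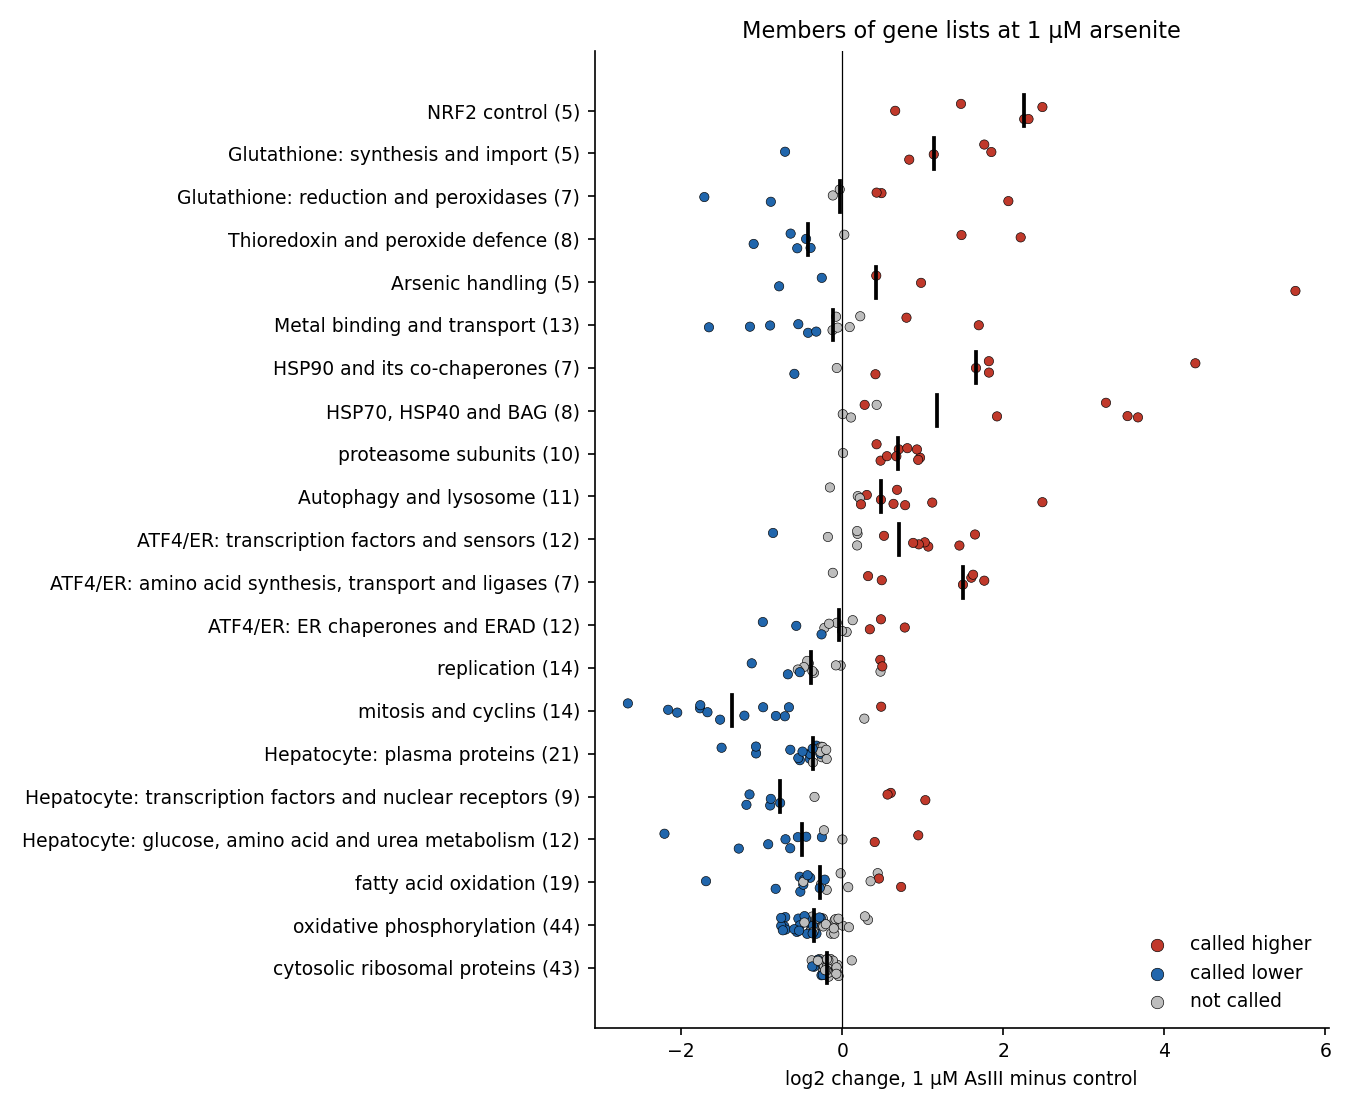
Each point is a measured member of a gene list, placed at its log2 change, 1 µM AsIII minus control; red and blue mark members called higher and lower, grey those not called, black bars the median of the row and numbers in brackets the members. The rows of NRF2 regulators, proteasome subunits and autophagy genes have no member called lower. Those of plasma protein, oxidative phosphorylation and ribosomal protein genes have none called higher.

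Several of the largest changes belonged to none of these groups. odad4, named for the outer dynein arm of cilia, went from 5.37, 12.9 and 17.6 to 162, 244 and 288 normalised reads. The zinc finger gene zfn2b had 905, 1094 and 1892 and 13176, 17058 and 20412, and herc4, a ubiquitin ligase, 538, 555 and 715 and 6009, 7275 and 8257. herc4 had the smallest adjusted p of the genes named here (4.23e-17). The RNA-binding gene strbp (3.45 ± 0.13), the phosphatase dusp28 (3.63 ± 0.18) and exoc3l2b (2.99 ± 0.11) also rose. Of the falls, the largest among genes with a symbol was that of fam20a (GeneID 106589597), which in mammals assists the secretory kinase FAM20C, from 255, 405 and 465 to 9.07, 15.2 and 46.6. slc25a39, which carries glutathione into mitochondria in mammals, fell by 2.36 ± 0.13, from 97.3, 114 and 162 to 16.8, 23 and 34.2. The AMP-kinase subunit prkag2a (-1.92 ± 0.17), the lysophosphatidic acid receptor lpar6a (-2.17 ± 0.15) and the chromatin gene nucks1 (-2.11 ± 0.16) fell too. In all, 10 genes went from a mean below 10 normalised reads to 100 or more and 1 gene went the other way. Of the 10, abcc3 and aox5 carry an informative symbol.

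The most abundant genes took a smaller share of the reads. The 50 most read genes of each library took 36.3% ± 1.00 (SD, n = 6) of the reads in the controls and 31.8% ± 1.36 at 1 µM, and the groups did not overlap. Their share was lower in 6 of 6 fish, by a mean of -4.50 percentage points (SD 1.22; two-sided exact paired permutation test, p = 0.03125, the smallest that 6 pairs can give). Among genes with a symbol the largest losses were in tfa, the fibrinogen gene fgg, apoa2, scdb, apoc1 and selenop. Levels of apoc1 were 69538 to 79954 in the controls and 45195 to 57350 at 1 µM. Its call was lost without fish 3 and with DESeq2, fits that kept the library that stood apart. In that library apoc1 had 254627 normalised reads, against 74040 to 85306 in the others at 0.1 µM. The part of that library in the lost calls was not tested. The largest gains, after sqstm1 and sqstm, were in hs90a, which went from 0.0145% ± 0.00545 to 0.307% ± 0.0535 of all reads, dnaja, zfn2b, tdx, gsr and meltf. LOC100136565, listed under the synonym FRIM, gained from 0.101% ± 0.0119 to 0.332% ± 0.0353. This locus and LOC100136426, which fell from 0.911% ± 0.357 to 0.247% ± 0.156 and carries no further name, were chosen after their values were seen.

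Salmon carry many duplicated genes, and copies did not always move together. Among 147 pairs of measured genes whose symbols share all letters and digits up to a last digit, followed by a, b or nothing, both were called in 45 pairs. Of these 45 pairs, 14 had both higher, 18 both lower and 13 opposite calls. Over all genes 57.0% were called, 29.8% higher and 27.3% lower. Whether these pairs differed from pairs of unrelated genes was not tested. The clearest opposite pair with at least 100 normalised reads was slc3a2, the heavy chain of amino acid carriers. slc3a2b rose from 515, 738 and 823 to 1209, 1471 and 1832, and slc3a2a fell from 1239.8, 1379.8 and 1825 to 729, 855 and 1187. mbd3a, a methyl-CpG binding gene, rose by 1.57 ± 0.16 while mbd3 fell by 0.28 ± 0.09, a call lost with library totals. clk4b (0.36 ± 0.09) and clk4a (-0.30 ± 0.09), splicing kinases, and chchd6a (0.38 ± 0.12) and chchd6b (-0.24 ± 0.08), of the mitochondrial inner membrane, differed by less. With library totals the calls of clk4a and chchd6b were lost, and that of chchd6b also without fish 4 or fish 5. The call of ube2b was lost without fish 6. The pairs ube2a (-0.45 ± 0.13) and ube2b (0.57 ± 0.20), and heatr5a (-0.54 ± 0.16) and heatr5b (0.37 ± 0.09), are separate genes in mammals too, so their symbols alone do not make them salmon copies. Reads shared between near-identical copies could blur such contrasts.

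By the SD of the change over fish, the 6 most variable called genes with an informative symbol and at least 100 reads were hsp30, aox5, abcc3, fam20a, fosl1a and tp53inp2b. The SD of the log2 change was 1.97 in hsp30 and 1.16 in aox5. aox5 and abcc3 had 31 and 41 reads summed over the 6 controls and reached 100 normalised reads only through the 1 µM group, so counting error at low levels enters their spread, and its part was not tested. fosl1a, an AP-1 gene, rose by between 0.56 and 2.60 and tp53inp2b, an autophagy gene, changed by between -2.11 and -0.01.

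Values at the other AsIII concentrations use the same 6 control libraries, so the 3 comparisons are not independent. Against the control 2 genes were called at 0.1 µM (0.0106%) and 13441 at 3 µM (71.1%), and 9859 genes (52.2%) were called between 3 and 1 µM. The 0.1 µM group holds the library that stood apart, and without it 4 genes were called at 0.1 µM, 14538 at 3 µM and 11533 between 3 and 1 µM. At an unadjusted p below 0.05, limma gave 1473 genes at 0.1 µM with it and 1316 without it. Several rises at 1 µM were smaller at 3 µM by that last test. gclc, 1.85 ± 0.08 at 1 µM, was 1.03 at 3 µM (adjusted p = 8.48e-09 for 3 against 1 µM), pgd 0.31 (0.000107) and the clock repressor bhlhe41, 2.00 ± 0.14 at 1 µM, 0.30 (1.29e-09). ephx1 was -0.34 at 3 µM (1.93e-07). prkag2a changed sides, from -1.92 ± 0.17 at 1 µM to 0.80 at 3 µM (2e-11), and ccnd2 from 0.48 ± 0.13 to -1.32 (1.53e-10).

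Several chaperone genes and ddit3 were higher again at 3 µM. bag3 was 7.24, hs90a 6.56 and hsp30 8.13 at that concentration, and ddit3 2.65, each above 1 µM by the same test (adjusted p = 2.5e-11, 2.38e-10, 9.35e-07 and 1.19e-10). Other changes were not called different between 3 and 1 µM. selenop was -1.66 and fam20a -4.28 at 3 µM, as3mt -0.67 and esr1 -1.18, with adjusted p = 0.92, 0.761, 0.376 and 0.946 between the concentrations. A p above the threshold does not show that the levels were equal. At 0.1 µM, gclc was 1 of the 2 genes called, with 0.45 (adjusted p = 0.0438), and it was 0.47 (adjusted p = 0.00556) without the library that stood apart. hs90a differed by -0.13 and selenop by 0.09 (adjusted p = 0.792 and 0.847).

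**Figure D4:**
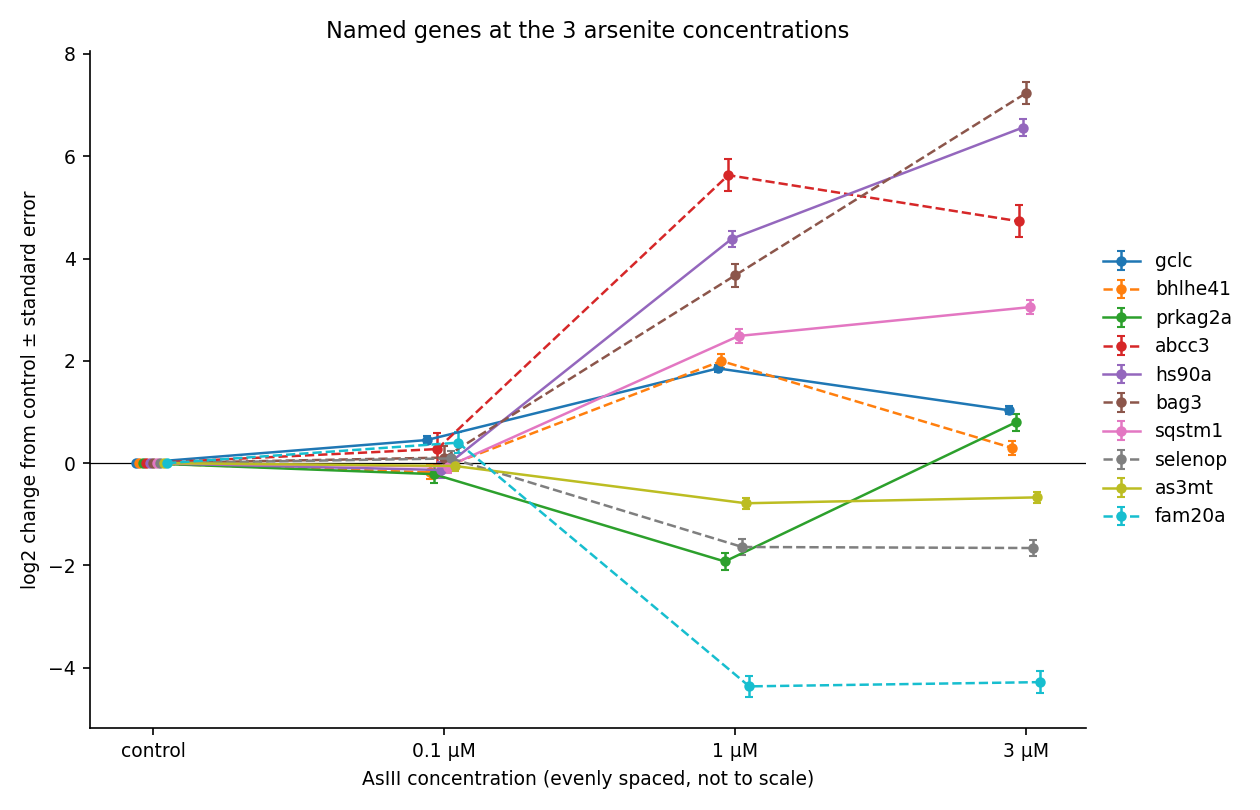
Log2 change from the AsIII control with its standard error (n = 6 fish) at 0.1, 1 and 3 µM for 10 named genes; the control is at 0 by definition and all 3 concentrations share it. hs90a, bag3 and sqstm1 keep rising to 3 µM, bhlhe41 and gclc are highest at 1 µM, and prkag2a is below the control at 1 µM and above it at 3 µM.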

How the data were processed

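RNA of 54 libraries was sequenced, and 24 of them (control, 0.1, 1 and 3 µM AsIII, each with 6 fish) entered the fit. The authors aligned and counted reads with HISAT2 and featureCounts (Subread) and used DESeq2 1.40.2, per the submitters' processing notes. Genome build, annotation and strand setting were not given in the sources used here. Each deposited value is a normalised signal, the count of a gene after the authors' scaling with a single factor for each library. Whole reads were recovered for 100% of values (within 0.1 read, largest deviation 0.0931), which gave the depths. Of 18901 gene IDs, 18900 matched RefSeq names of Ssal_v3.1, 6224 of them with a symbol.

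log2(value + 1) was fitted with limma 3.58.1 in R 4.3.3 (concentration plus fish, moderated with a trend) over 18899 genes with at least 10 in at least 6 libraries. Fold changes are on that scale and understate changes of low genes. p-values were Benjamini-Hochberg adjusted over all genes tested. The design was paired because the labels give the same animal. Same-fish deviations correlated at 0.0344 to 0.388, median 0.292. The code of the fit was checked on simulated counts with few changed genes and no differences between fish. That check does not show how the fit performs on data such as these. Alternatives were edgeR 4.0.16 (quasi-likelihood, 11063 genes called) and DESeq2 1.42.0 on the recovered reads, other scalings, pseudocounts and filters, no block, the 12 libraries alone, each fish left out and, added after the data were seen, the fit without fish 1 at 0.1 µM.

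Ranked sets of named genes were drawn only from called genes with an informative symbol, that is, not a locus or zgc-type name. These were the 12 largest rises and 12 largest falls with a mean of at least 100 reads and the same direction in 6 fish. Also drawn were the 8 largest gains and 8 largest losses of reads, 6 opposite copy pairs and the 6 genes most variable over fish. Up to 2 called members each way per list role and all arsenic handling genes were named too. With the same limits on reads and direction but any name, 73 of the 100 largest rises carried only locus names. Among the 100 largest falls it was 67, beside 67.1% of all genes tested. Other list members are given as examples. The names carry no descriptions, so lists were matched by symbol or synonym and copy pairs by symbol. The comparison, members and lists were chosen with earlier results of these data known. Results for a few genes are not reported here.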

Additional observations from a re-analysis of the deposited data

Results flagged for a closer look

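In 340 groups of 6 libraries tested for named genes, 19 (5.59%) had a highest or lowest library whose gap to the next, divided by the range of the group, was above 0.625, the critical value for 6 samples. Chance flags about 1 group in 20. No explanation was tested.

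In the control group, fish 1 had cmpk2 highest at 151 normalised reads, next 57.6 (ratio 0.704) and dusp28 highest at 55.5 normalised reads, next 16.5 (ratio 0.726). In the control group, fish 5 had pgd lowest at 2472 normalised reads, next 2851 (ratio 0.706). In the control group, fish 6 had apoa2 highest at 119016 normalised reads, next 102730.0 (ratio 0.632) and bcl2l11 highest at 67.9 normalised reads, next 44.7 (ratio 0.76). In the control group, fish 6 had tiparp highest at 252 normalised reads, next 191 (ratio 0.685).

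At 1 µM, fish 1 had cpt1b highest at 1156 normalised reads, next 524 (ratio 0.702) and fam20a highest at 46.6 normalised reads, next 16.4 (ratio 0.649). Fish 1 at 1 µM had sdf2l1 lowest at 215 normalised reads, next 276 (ratio 0.63) and timp2 lowest at 899 normalised reads, next 1139 (ratio 0.692). At 1 µM, fish 2 had apoba lowest at 1838 normalised reads, next 2592 (ratio 0.685) and mvda lowest at 792 normalised reads, next 1169 (ratio 0.733). Fish 2 at 1 µM had optn lowest at 1397 normalised reads, next 1687 (ratio 0.722) and tnfaip3 highest at 895 normalised reads, next 669 (ratio 0.81). At 1 µM, fish 3 had LOC106591927 lowest at 16.8 normalised reads, next 30.2 (ratio 0.627) and gnmt highest at 17428 normalised reads, next 14934 (ratio 0.63). Fish 3 at 1 µM had mt2 lowest at 475 normalised reads, next 754 (ratio 0.75). At 1 µM, fish 5 had bbc3 lowest at 66.2 normalised reads, next 91.7 (ratio 0.637) and prdx1 lowest at 62.4 normalised reads, next 94.8 (ratio 0.841).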

How the results depend on the processing

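The number of genes called at 1 µM was 10779 and stayed within 1.5 times of that under every alternative run. It was 9970 without the replicate block (the pairing by fish), 10403 with library totals, 10771 with TMM factors, 10758 and 10888 with pseudocounts of 0.5 and 10, 9195 of 15080 genes with the stricter filter, 11083 with DESeq2, 12576 with the 12 libraries alone and 12473 without fish 1 at 0.1 µM. Leaving out fish 1, and with it the library that stood apart, gave 12063. Leaving out any other fish, which kept that library, gave 9577 to 10005. Of the genes called in the main and the 12-library fits, 10702 were shared and 0 had opposite directions. Over 2916 combinations of 172 named genes and settings, 2859 kept direction and call, 57 lost the call and 0 reversed. The block changed the call of 7 named genes, among them those of mthfd1b and nfe2l1b, to not called when it was left out. The share of reads in the top 10 genes differed by -2.86 points and that in the top 200 by -4.91. Without 1 fish the difference for the 50 most read genes ranged from -4.81 to -4.18. With 5 pairs, p = 0.0625 is the smallest that the exact paired permutation test can give. Depth limited genes with few reads, for which folds rest on small counts. Replicates are 1 library per fish, so technical spread was not measured.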

Other observations

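The lists below were chosen after values were seen, are given as counts and values without a test of the list, and stand beside 29.8% of all genes called higher and 27.3% called lower at 1 µM. Of 22 genes of selenoproteins and of selenocysteine synthesis and decoding, 12 fell and 3 rose, with a median change of -0.36. Besides selenop, gpx1a and gpx4a, the deiodinase genes dio1 (-1.04) and dio3b (-0.84), which activate and inactivate thyroid hormone, fell, as did selenop2 (-0.86) and selenoh (-0.80). selenol (1.28), selenoo (0.50) and gpx3 (0.49) rose.

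Of 13 cytosolic tRNA synthetase genes, which charge tRNAs with amino acids, 8 rose and 1 fell (median 0.44), and without fish 1 at 0.1 µM 11 rose and 2 fell. aars1 (0.92) and eprs1 (0.59) rose and kars1 (-0.52) fell. Of the 14 mitochondrial synthetase genes 3 rose and 5 fell. Genes of nuclear transport rose in 11 of 20 cases and fell in 1 (13 and 2 without fish 1 at 0.1 µM), with the exportin xpo1a at 0.94, the importin tnpo1 at 0.93 and the pore gene nup62l at -0.87. Of 11 peroxisome assembly genes 4 fell and 0 rose (1 rose without fish 1 at 0.1 µM), and the 3 histone genes measured fell. Genes of the ABC family, of which abce1, abcf1 and abcf2a are not transporters, gave 6 rises and 2 falls among 15. abca7 was at 1.36 and the sterol exporter abcg5 at -0.63. A list of COPI and COPII coat genes and other vesicle genes with sec symbols gave 2 rises and 3 falls among 12. Those that rose were sec16a (0.51) and sec24b (0.51). Those that fell were the coat gene arcn1a (-0.23) and sec22a (-0.54) and sec22c (-0.45), which are not coat genes.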
